A study of Mus musculus with 20 samples.

Results

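The miR-29 family was followed in primary mouse cortical neurons that had been deprived of oxygen and glucose. The family was taken by name: 7 mature strands were listed (mmu-miR-29a-3p, mmu-miR-29b-3p, mmu-miR-29c-3p, mmu-miR-29a-5p, mmu-miR-29b-1-5p, mmu-miR-29b-2-5p and mmu-miR-29c-5p, written below without the prefix for mouse), and 6 of them had a row among the 1481 features of the deposited small RNA tables. The strand miR-29b-1-5p had no row and is not analysed here. Neurons were prepared at embryonic day 15 and cultured for 7 days. The wild-type normoxic group (5 libraries) spent 12 h in medium with 25 mM glucose and 0.2 mM pyruvate at 5% CO2 and 37 °C. The wild-type OGD group (5 libraries) spent 12 h in oxygen-glucose deprivation (OGD), an ischaemia model in a dish, at 1% O2, 5% CO2 and 37 °C with no glucose or pyruvate added. The knockout groups, normoxic and OGD (5 libraries each), received the same treatments but lacked ciRS-7 (Cdr1as), a brain circular RNA that binds miR-7 and miR-671. The labels name 1 strain, C57BL/6N-Cdr1asem1Nikr, for all 20 libraries, those called wild type included. ciRS-7 itself is not a feature of these tables, so the deletion could not be checked here.

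MicroRNAs are short RNAs that guide Argonaute proteins to messenger RNAs through their seed (bases 2 to 8) and lower the output of those messages. Each hairpin precursor gives a 5p and a 3p strand, of which usually 1, the guide, accumulates. The miR-29 guides are the 3p strands. They are known to rise as neurons mature, to be present in astrocytes as well, to restrain BH3-only genes, which encode proteins that start mitochondrial cell death, and to target collagens and DNA methyltransferases.

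The mature sequences from RefSeq (GRCm38.p6) are given first, since they decide which strands can share targets and which reads can be told apart. All 7 listed strands matched the table by name; capitals mark the seed, and sequences run 5′ to 3′.
miR-29a-3p: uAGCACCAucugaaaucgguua
miR-29b-3p: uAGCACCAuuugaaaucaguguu
miR-29c-3p: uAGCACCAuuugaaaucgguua
miR-29a-5p: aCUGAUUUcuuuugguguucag
miR-29b-1-5p: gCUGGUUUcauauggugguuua
miR-29b-2-5p: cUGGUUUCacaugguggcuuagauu
miR-29c-5p: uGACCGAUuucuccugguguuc

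The 3 guides had the same seed, and no other name among the 1679 mature mouse miRNAs of that table had it. Counted from 1 at the 5′ end, miR-29c-3p differed from miR-29a-3p by the single substitution C10U. Over 22 positions miR-29b-3p differed from miR-29c-3p by G18A, U21G and A22U, and it was 1 base longer. The 5p strands each had another seed, and that of miR-29b-2-5p was shared with 1 other mature name. Among all features, the 2 pairs with the same mature sequence had the same reads in all 20 libraries. That covers identical sequences and not those that differ by 1 base. How the authors counted reads that fit more than 1 of the miR-29 sequences is not given in the sources used here. The split between miR-29a-3p and miR-29c-3p is uncertain to that extent.

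The hairpins lie in 2 clusters. Mir29a (chr6:31062660-31062747, minus strand, in no annotated host gene) and Mir29b-1 (chr6:31063023-31063093, minus strand, within the long noncoding gene Gm27019 but in no exon of it) are 275 bases apart. Mir29b-2 (chr1:195037040-195037120, plus strand) and Mir29c (chr1:195037547-195037634, plus strand) are 426 bases apart. Both of these lie in exons of the noncoding transcript A330023F24Rik on the same strand and overlap an exon of Cd46 on the opposite strand. The mature miR-29b-3p sequence is at chr6:31063025-31063047 and again at chr1:195037091-195037113, so its reads cannot be assigned to a cluster. By sequence, the rows miR-29a-3p and miR-29a-5p report on chromosome 6 only, and miR-29b-2-5p, miR-29c-3p and miR-29c-5p on chromosome 1 only. For miR-29a-3p and miR-29c-3p this holds as far as their reads were told apart.

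The deposited score was turned back into whole reads, and levels are given as CPM, counts per 1e6 reads of the library size that the authors' scaling implies. Totals ran from 2492065 to 12477032 reads in normoxic and from 1160582 to 4374002 in OGD libraries, so depth moved with the treatment. On the first principal component of 423 features (83% of variance), wild-type normoxic replicate 5 stood at -0.88, against -14.46 to -13.09 for the rest of its group and 7.00 to 15.05 for the OGD libraries. Knockout normoxic replicates 2 and 4, at -6.61 and -6.46, also lay towards the OGD side of their group. The family sums, the OGD calls, the strand ratios and the genotype differences are also given without these libraries. The 4 neuronal marker miRNAs of the list used here (miR-124-3p, miR-128-3p, miR-9-5p and miR-137-3p) had reads in every library and summed to 287717 to 386268 CPM. The 2 glial markers (miR-21a-5p and miR-146a-5p) had reads in every library, and their sum, which was not tested, ran higher after OGD, with overlap in wild type and none in knockout. They summed to 1649 to 2583 CPM in normoxia and 2448 to 3031 CPM after OGD in wild type, and to 2137 to 2340 and 2500 to 3323 CPM in knockout. Their part in the miR-29 results was not tested. Of the 4 microglial and leukocyte markers, none had a read in every library, and they summed to at most 5.19 CPM.

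The family was carried by miR-29a-3p. Of 18443 miR-29 reads in the 20 libraries, 16332 (88.6%) were miR-29a-3p, 776 (4.21%) miR-29b-3p, 620 (3.36%) miR-29c-3p, 422 (2.29%) miR-29c-5p, 272 (1.47%) miR-29b-2-5p and 21 (0.114%) miR-29a-5p. These shares pool raw reads, so the deeper libraries, mostly normoxic, weigh most in them. In wild-type normoxia miR-29a-3p ranked 178 among all features by mean CPM, and the whole family made up 0.0158% ± 0.00396 of all CPM (SD, n = 5). Next in order in that group came miR-29b-3p (4.35 to 8.62 CPM), miR-29c-3p (3.4 to 6.44 CPM), miR-29c-5p (2.48 to 5.29 CPM) and miR-29b-2-5p (2.27 to 3.21 CPM). Each of these 4 overlapped its neighbour in range between libraries. Within each library of that group, miR-29c-3p had fewer reads than miR-29b-3p (ratio 0.474 to 0.913), and miR-29c-5p had no fewer than miR-29b-2-5p (1 to 2.33). The order of miR-29c-5p and miR-29c-3p varied between libraries (ratio 0.385 to 1.56). Read levels of different sequences also depend on how well each is ligated, and the order describes reads, not molecules. Of the strands, miR-29a-3p and miR-29b-3p passed a mean log2(CPM + 0.5) of 3 over all libraries, and the other 4 measured strands did not.

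Summed over the 6 strands, miR-29 was 160 ± 40.5 CPM in wild-type normoxia, 227 ± 28.6 CPM in wild-type OGD, 171 ± 22.6 CPM in knockout normoxia and 224 ± 22.4 CPM in knockout OGD (SD, n = 5 in each). The wild-type groups overlapped (112 to 216 against 189 to 264 CPM), as did the knockout groups (133 to 191 against 185 to 243 CPM). The 3p share of the family stayed between 93.3% and 97.5% in every library, a share set mainly by miR-29a-3p. It did not hold hairpin by hairpin: for Mir29c the 5p reads came to 0.385 to 1.56 per 3p read, and were above 1 in wild-type normoxic replicate 5 (1.56) and wild-type OGD replicate 5 (1.42). Without wild-type normoxic replicate 5 the normoxic sum was 172 ± 35.3 CPM (SD, n = 4), still overlapping the OGD range, and without knockout normoxic replicates 2 and 4 it was 160 ± 23.9 CPM (SD, n = 3), below every knockout OGD library. The share of miR-29a-3p within the family ran from 83.8% to 91.3%.

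**Figure D1:**
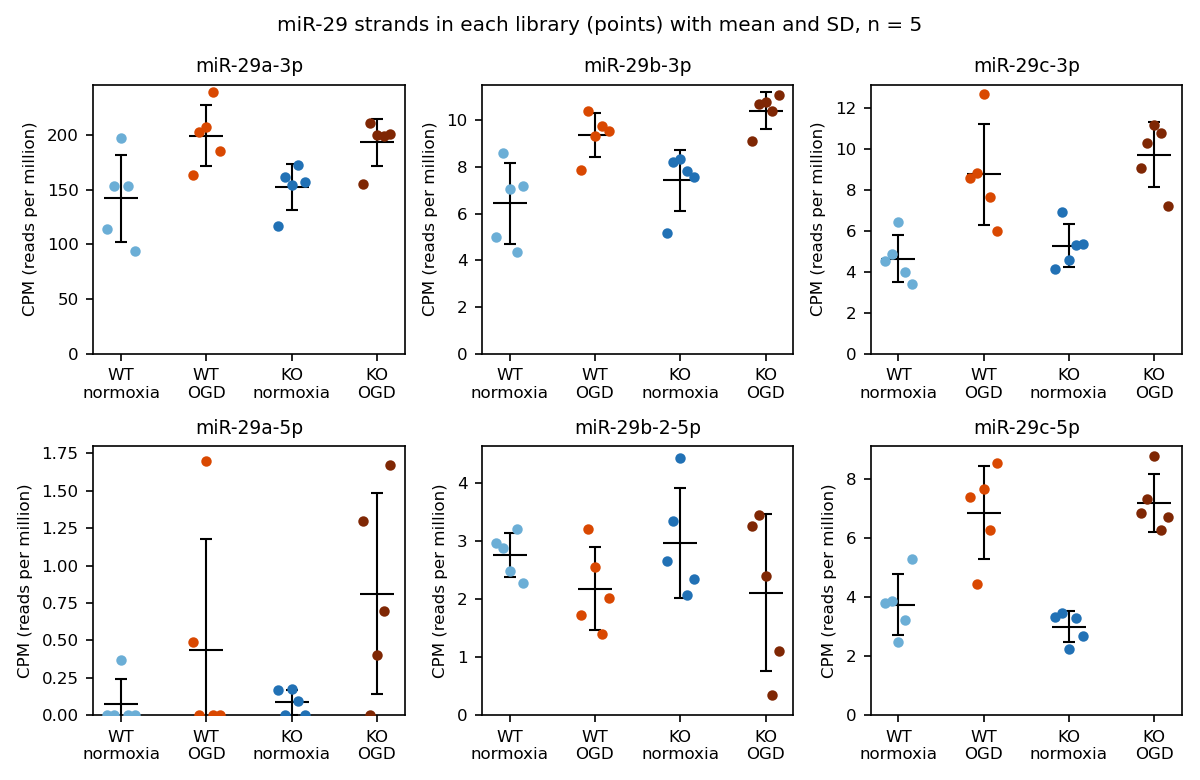
CPM of each miR-29 strand (vertical axes, each from 0) in the 20 libraries by group, with points for libraries and black bars for mean and SD (n = 5, cut at 0 for miR-29a-5p). At the authors' library sizes OGD means lie above normoxic means in every panel except that of miR-29b-2-5p, an order that centring the libraries turned for miR-29a-3p and miR-29b-3p in both genotypes and for miR-29a-5p in wild type.

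The first comparison asked how OGD changed the family in wild-type neurons. The guides miR-29a-3p and miR-29c-3p and the passenger strand miR-29c-5p rose, so 3 of 6 measured strands were higher in limma (adjusted p under 0.05 over all features), none was lower, and the median log2 change of the 6 was 0.53. These directions hold for the authors' library sizes; with libraries centred on their medians, 0 strands were called higher and 1 lower, the median of the 6 was -0.027, and miR-29a-3p, miR-29b-3p and miR-29a-5p turned to just under 0. Among all 1478 features of that comparison, 18.7% were called higher and 4.4% lower, and the median log2 change was 0.32. The wild-type groups overlapped for all 6 strands, while 13.5% of all features were higher and 2.57% lower without overlap. These are bulk libraries, so a change in the share of a cell type and a change in RNA per cell cannot be told apart.

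The main guide, miR-29a-3p, stood at 114, 153, 197, 153 and 94.1 CPM in wild-type normoxic replicates 1 to 5, and at 163, 203, 207, 239 and 185 CPM after OGD. Normoxic replicate 3, the highest of its group, was above OGD replicates 1 and 5, so the groups overlapped. The log2 change was 0.52 (SE 0.17, limma adjusted p = 0.034).

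The guide miR-29b-3p stood at 4.99, 8.62, 7.06, 4.35 and 7.18 CPM in normoxia and at 7.86, 10.4, 9.34, 9.74 and 9.54 CPM after OGD. Only normoxic replicate 2 reached into the OGD range, above OGD replicate 1. The log2 change, 0.54 (SE 0.23), was as large as that of miR-29a-3p but did not pass the threshold (limma adjusted p = 0.0971). The values rest on 11 to 69 reads per library.

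The guide miR-29c-3p, from the chromosome 1 cluster, stood at 4.52, 4.87, 6.44, 3.97 and 3.4 CPM in normoxia and at 8.6, 8.84, 12.7, 7.65 and 6.02 CPM after OGD. OGD replicate 5 was below normoxic replicate 3, and the other OGD libraries were above every normoxic one. Its log2 change was 0.84 (SE 0.25, limma adjusted p = 0.0204). It rests on 9 to 52 reads per library.

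The opposite strand of the same hairpin, miR-29c-5p, stood at 3.8, 3.87, 2.48, 3.21 and 5.29 CPM in normoxia and at 7.37, 4.42, 7.65, 6.26 and 8.53 CPM after OGD. The overlap came from normoxic replicate 5, the library that stood apart, which exceeded OGD replicate 2. The log2 change was 0.8 (SE 0.26, limma adjusted p = 0.0347).

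The passenger strand of the neighbouring hairpin, miR-29b-2-5p, was not called. Its levels were 2.97, 2.87, 2.48, 3.21 and 2.27 CPM in normoxia and 1.72, 3.21, 2.55, 1.39 and 2.01 CPM after OGD, on 2 to 25 reads per library. The groups overlapped, and the log2 change was -0.32 (SE 0.29, limma adjusted p = 0.471), and -0.20 without OGD replicate 4. The strand miR-29a-5p had 3 reads in all in normoxia, all in replicate 3, and 4 after OGD. Its pooled CPM ratio of 3.87 had an exact 95% interval of 0.655 to 26.4, which covers counting error only.

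In the main fit, which had no block for replicate number, the wild-type calls were close to the threshold. With such a block, at the authors' library sizes, the limma adjusted p was 0.00287 for miR-29a-3p, 0.00666 for miR-29c-3p and 0.0248 for miR-29c-5p. The fits below used no block. Leaving out each library in turn, the call of miR-29c-3p held in 9 of 10 fits and was lost without normoxic replicate 4 (limma adjusted p = 0.0546). Those of miR-29a-3p and miR-29c-5p each held in 3 of 10. The call of miR-29a-3p was lost without normoxic replicates 1, 4 or 5 or OGD replicates 2, 3, 4 or 5 (limma adjusted p 0.056 to 0.123), and that of miR-29c-5p without normoxic replicates 1, 2, 3 or 4 or OGD replicates 1, 3 or 5 (0.0579 to 0.094). Without normoxic replicate 5, 2 strands were called, beside 341 of all 1478 features. These were miR-29c-3p at 0.75 (limma adjusted p = 0.0336) and miR-29c-5p at 0.92 (0.0135), while miR-29a-3p stood at 0.39 (0.0614). With all libraries thinned to the depth of the shallowest, 0 strands were called, beside 17.1% of all features. The change of miR-29a-3p was then 0.49 (limma adjusted p = 0.134), that of miR-29c-3p 0.47 (0.277) and that of miR-29c-5p 0.48 (0.454).

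The second comparison asked the same in ciRS-7 knockout neurons. The strands miR-29a-3p, miR-29c-3p, miR-29a-5p and miR-29c-5p rose, 4 of 6, none fell, and the median log2 change was 0.65. With centred libraries 1 strand was higher and 1 lower, the median was 0.14, and miR-29a-3p and miR-29b-3p turned to under 0. Among all 1479 features of that comparison, 18.8% were called higher and 5.75% lower, with a median log2 change of 0.24. The knockout OGD and normoxic groups did not overlap for 3 of the 6 strands (miR-29b-3p, miR-29c-3p and miR-29c-5p), all higher after OGD, while 15.3% of all features were higher and 3.79% lower without overlap.

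In knockout neurons miR-29a-3p stood at 117, 162, 154, 173 and 157 CPM in normoxia and at 155.1, 211.3, 200.3, 198.6 and 201.2 CPM after OGD. OGD replicate 1 lay among the normoxic libraries and the other 4 lay above all of them. The log2 change was 0.34 (SE 0.12, limma adjusted p = 0.0409). That call held in 2 of 10 fits that left out a library, those without normoxic replicate 4 or OGD replicate 1. It was lost without normoxic replicates 1, 2, 3 or 5 or OGD replicates 2, 3, 4 or 5 (limma adjusted p 0.0591 to 0.104).

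The level of miR-29b-3p was 5.16, 8.2, 8.35, 7.85 and 7.57 CPM in normoxia and 9.1, 10.7, 10.8, 10.4 and 11.1 CPM after OGD. Every OGD library was above every normoxic one. The log2 change was 0.48 (SE 0.17), just short of the threshold (limma adjusted p = 0.0549). It was called without OGD replicate 1 (0.53, adjusted p = 0.0377).

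The level of miR-29c-3p was 4.16, 6.93, 4.6, 5.33 and 5.34 CPM in normoxia and 9.1, 10.3, 11.2, 10.8 and 7.24 CPM after OGD, again without overlap. The log2 change was 0.83 (SE 0.19, limma adjusted p = 0.00405). The level of miR-29c-5p was 3.33, 3.47, 2.22, 3.27 and 2.67 CPM in normoxia and 6.83, 7.3, 8.78, 6.25 and 6.69 CPM after OGD. It too did not overlap, and its log2 change was 1.14 (SE 0.20, limma adjusted p = 4.3e-04). Both strands of the Mir29c hairpin stayed called in 10 of 10 fits that left out a library.

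The level of miR-29b-2-5p was 2.66, 3.35, 4.43, 2.06 and 2.34 CPM in knockout normoxia and 3.25, 3.44, 2.39, 0.347 and 1.11 CPM after OGD. The OGD libraries were spread widely, down to a single read in replicate 4, and the groups overlapped. The log2 change was -0.58 (SE 0.39, limma adjusted p = 0.315). Without OGD replicate 4 it was -0.23 (0.645), and it ran from -0.78 to -0.23 when each library was left out. The strand miR-29a-5p had 4 reads in normoxia, in 3 libraries, and 10 after OGD, in 4 libraries. Its log2 change was 1.00 (SE 0.34, limma adjusted p = 0.0433), a size that moved with the pseudocount (1.89 at 0.1 CPM, 0.40 at 2 CPM) and a call that held in 1 of 10 fits leaving out a library, the fit without OGD replicate 2 (limma adjusted p 0.0618 to 0.116 in the others). As a pooled CPM ratio the difference was 9.18 (exact 95% interval 2.65 to 40.1, counting error only). Without knockout normoxic replicate 2, 2 strands were called, beside 298 of all 1479 features. Without replicate 4, 3 strands were called, beside 307 features.

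These rises depended on how libraries were put on a common scale. The median library level moved by 0.56 (log2) with OGD in wild type and by 0.51 in knockout, and the changes of miR-29a-3p and miR-29b-3p were of about that size or smaller. They were larger than the median change of features whose log2(CPM + 0.5) averaged 3 or more, which was 0.22 in wild type (425 features) and 0.20 in knockout (420 features); no test against that median was run. Relative to that shift, with each library centred on its median, miR-29a-3p stood at -0.037 in wild type and -0.17 in knockout, and miR-29b-3p at -0.018 and -0.031; none of the 4 passed the threshold (limma adjusted p 0.322 to 0.969). The Mir29c strands kept their direction with a smaller size. On the centred scale miR-29c-3p stood at 0.28 in wild type (limma adjusted p = 0.474) and 0.32 in knockout (0.283), and miR-29c-5p at 0.24 (0.566) and 0.63, the last of which was called (0.0344). For miR-29b-2-5p centring brought a fall past the threshold, by 0.88 in wild type (limma adjusted p = 0.04) and by 1.09 in knockout (0.0348). Centring also turned the split of calls over all features, to 7.31% higher and 17.9% lower in wild type and 7.57% and 21.9% in knockout. With quantile normalization the splits were 9.54% and 12.9%, and 9.53% and 12.6%. On that scale miR-29b-2-5p was the only strand called in wild type (-0.96, limma adjusted p = 0.0268) and 1 strand, higher, was called in knockout, miR-29c-5p.

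**Figure D2:**
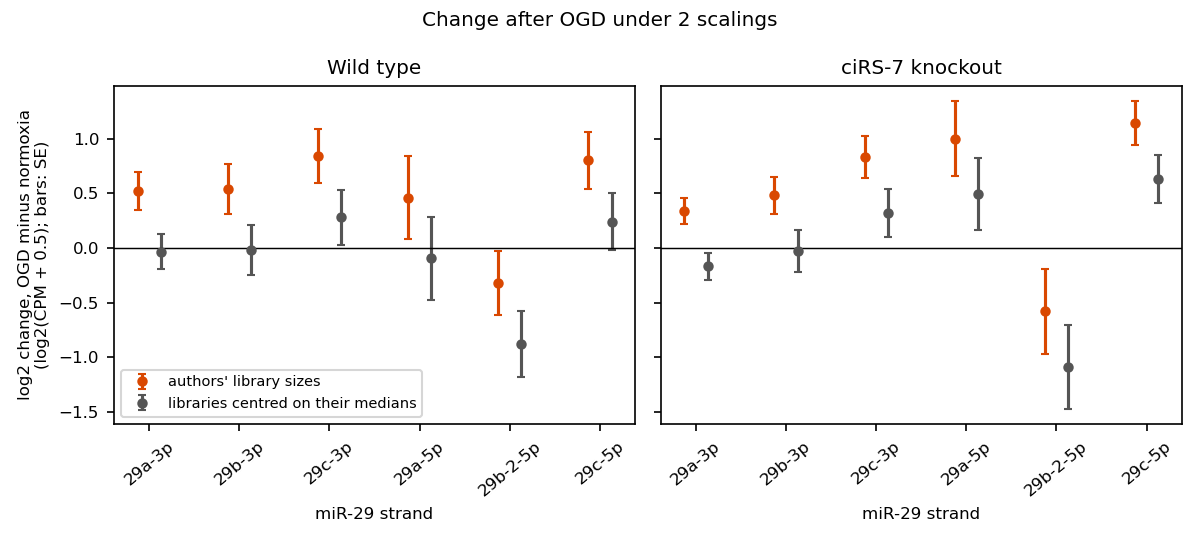
Log2 change from normoxia to OGD on the log2(CPM + 0.5) scale (vertical axis) for the 6 strands in wild type (left) and ciRS-7 knockout (right), with orange points for the authors' library sizes, grey points for libraries centred on their medians, and SE bars from limma (5 libraries a group). On the centred scale miR-29a-3p and miR-29b-3p sit at or just under 0, while miR-29b-2-5p is at -0.88 and -1.09.

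Ratios between strands of 1 library do not depend on library size, and they are given as descriptions with no test. The ratio of miR-29b-3p to miR-29a-3p was nearly level with OGD: the fold between geometric means was 1.04 in wild type and 1.12 in knockout, and the groups overlapped in both. The ratio of miR-29c-3p to miR-29a-3p was higher after OGD, 1.3-fold in wild type (0.026 to 0.0398 in normoxia, 0.032 to 0.0615 after OGD) and 1.46-fold in knockout (0.0299 to 0.0429, then 0.036 to 0.0587). In wild type 3 of 5 OGD libraries, and in knockout 4 of 5, were above every normoxic library of that genotype. Without the libraries that stood apart, the miR-29b-3p ratio was 1.18-fold higher in wild type and 1.11-fold in knockout. The miR-29c-3p ratio was then 1.33-fold and 1.51-fold higher, in knockout without overlap.

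Of the 6 ratios computed, the largest fold was between strands of neighbouring hairpins on chromosome 1. The reads of miR-29c-5p per read of miR-29b-2-5p were 1.28, 1.35, 1, 1 and 2.33 in wild-type normoxic replicates 1 to 5 and 4.29, 1.38, 3, 4.5 and 4.25 after OGD, 2.43-fold higher in the geometric mean. Only OGD replicate 2 lay within the normoxic range. In knockout they were 1.25, 1.03, 0.5, 1.59 and 1.14 in normoxia and 2.1, 2.12, 3.67, 18 and 6 after OGD, without overlap and 4.32-fold apart. The value of 18 rests on a single read of miR-29b-2-5p. Without wild-type normoxic replicate 5 the fold was 2.8, with no overlap, and without knockout normoxic replicates 2 and 4 it was 4.99.

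The ratio of miR-29b-2-5p to miR-29b-3p, whose reads can come from either cluster, was lower after OGD. In wild type it ran from 0.316 to 0.739 in normoxia and from 0.143 to 0.308 after OGD, without overlap, and the fold between geometric means was 0.508 (0.468 without normoxic replicate 5). In knockout it ran from 0.262 to 0.531 and from 0.0333 to 0.357, with overlap, and the fold was 0.393 (0.349 without normoxic replicates 2 and 4). Between the 2 strands of the Mir29c hairpin the ratio (5p to 3p) had medians of 0.81 in normoxia and 0.818 after OGD in wild type, and of 0.5 and 0.75 in knockout, with overlap in both. Its fold was 0.983 in wild type (1.16 without normoxic replicate 5) and 1.3 in knockout (1.28 without normoxic replicates 2 and 4). The strand miR-29b-2-5p was thus lower after OGD relative both to miR-29c-5p and to miR-29b-3p, on 24 to 130 summed reads per group.

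**Figure D3:**
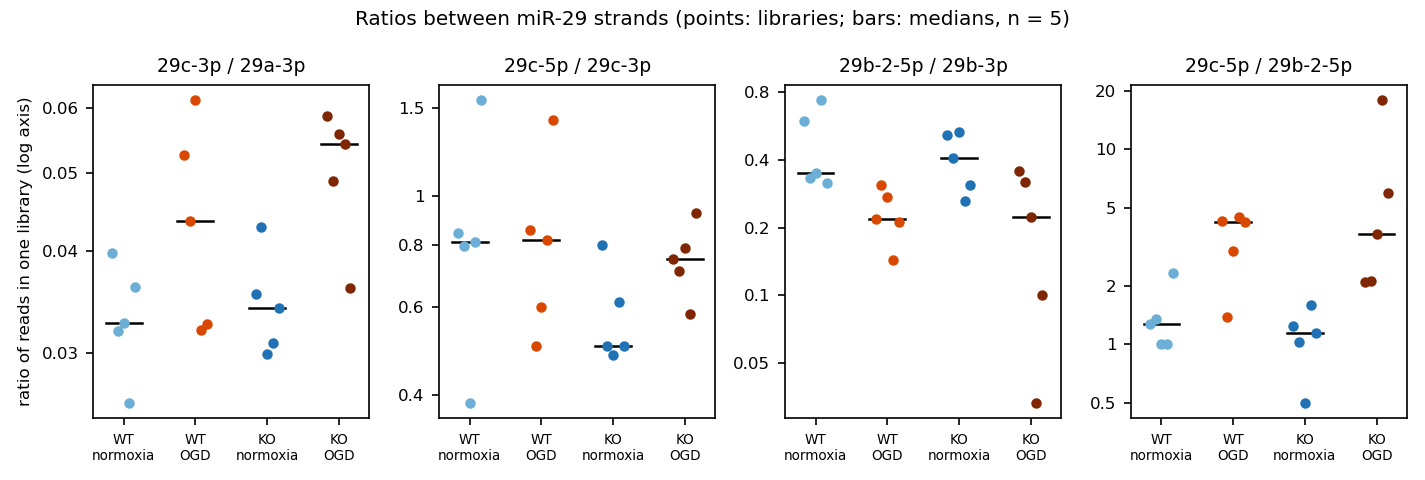
Ratios of reads between pairs of miR-29 strands within each library (log axes) in the 4 groups, with points for libraries and bars for medians (n = 5). In the rightmost panel, knockout OGD libraries (2.1 to 18) lie above every knockout normoxic library (0.5 to 1.59).

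The comparisons between genotypes asked whether loss of ciRS-7 changed the family, and the interaction asked whether it changed the response to OGD. Each shares libraries with the OGD comparisons. Of the 6 strands, 0 were called in normoxia, 0 after OGD and 0 in the interaction; over all 1481 features limma called 0% in each of the 3, with 47, 108 and 74 features at an unadjusted p under 0.05, and limma voom also called 0. Other settings did call features, none of them a miR-29 strand. The deposited values gave 33 in normoxia and 72 after OGD, and the fit over all 20 libraries gave 4 after OGD. Leaving out knockout OGD replicate 5 gave 22 after OGD. The interaction had 1 call with thinned reads and 1 without wild-type OGD replicate 1. In normoxia, knockout minus wild type was 0.14 for miR-29a-3p (95% interval -0.24 to 0.51), 0.21 for miR-29b-3p (-0.23 to 0.65), 0.18 for miR-29c-3p (-0.25 to 0.60) and -0.26 for miR-29c-5p (-0.72 to 0.21), on the log2 scale. Without wild-type normoxic replicate 5 these were 0.00078, 0.26, 0.084 and -0.14, and without knockout normoxic replicate 2 or 4 they were 0.11 and 0.09, 0.17 and 0.19, 0.081 and 0.17, and -0.31 and -0.29, none of them called. Over all 10 fits that left out a library, miR-29a-3p ran from 0.00078 to 0.27 (highest without wild-type replicate 3), miR-29b-3p from 0.092 (without wild-type replicate 4) to 0.33 (without knockout replicate 1), miR-29c-3p from 0.081 to 0.29 and miR-29c-5p from -0.38 to -0.14 (the highest of miR-29c-3p and the lowest of miR-29c-5p without wild-type replicate 3). The intervals are wide enough to hold a difference as large as the OGD change of miR-29a-3p in knockout (0.34). After OGD the difference was -0.043 for miR-29a-3p (-0.29 to 0.21), 0.15 for miR-29b-3p (-0.31 to 0.60) and 0.16 for miR-29c-3p (-0.34 to 0.67). Leaving out each library, these ran from -0.11 to 0.034, from 0.089 to 0.19 and from 0.047 to 0.30. The interaction was -0.18 for miR-29a-3p (-0.63 to 0.27), -0.013 for miR-29c-3p (-0.64 to 0.61) and 0.34 for miR-29c-5p (-0.30 to 0.98), with a limma adjusted p of 0.99 for all 6 strands. Without wild-type normoxic replicate 5 it was -0.044, 0.08 and 0.22 for these strands, without knockout normoxic replicate 2 -0.16, 0.083 and 0.39, and without replicate 4 -0.13, -0.0045 and 0.37. Over all 20 fits that left out a library it ran from -0.31 to -0.044, from -0.13 to 0.13 and from 0.20 to 0.46. The larger rise of miR-29c-5p in knockout (1.14 against 0.8) was therefore not shown to differ from that in wild type.

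**Figure D4:**
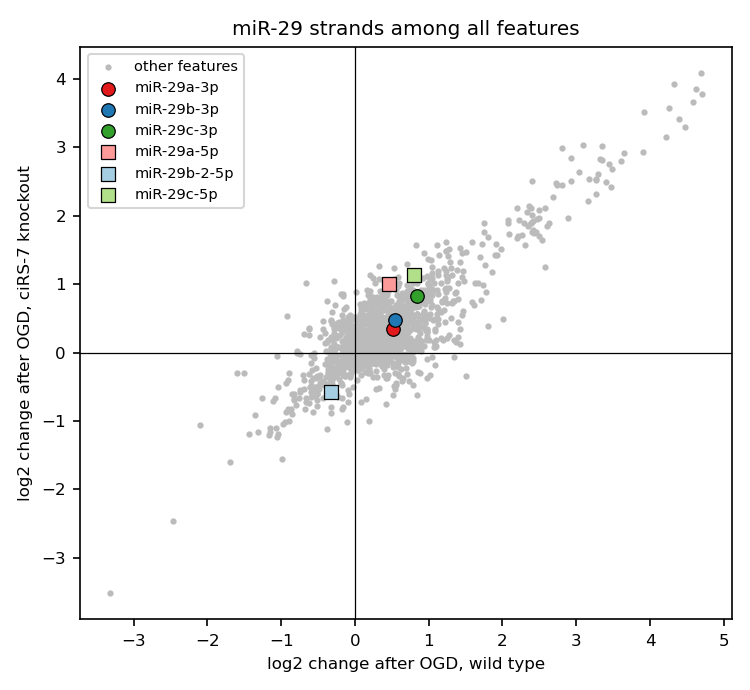
Log2 change from normoxia to OGD in wild type (horizontal axis) and ciRS-7 knockout (vertical axis) for 1476 features, with the miR-29 strands marked (circles 3p, squares 5p; from disjoint libraries). All 6 strands lie within the cloud of other features, 5 in the upper right and miR-29b-2-5p in the lower left; centred libraries would move all points down and left, by 0.51 and 0.56.

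By the rule for likeness, the 3 features with the highest Pearson r over the 20 libraries were named for each guide, among 306 features whose log2(CPM + 0.5) averaged 5 or more. These r values are descriptions, and the libraries share their group differences and depth. For miR-29a-3p they were miR-329-5p (0.88), miR-410-3p (0.86) and miR-129-2-3p (0.85). Once each group's mean was removed, miR-329-5p (0.81), miR-335-3p (0.81) and miR-369-3p (0.78) led. For miR-29b-3p they were miR-674-5p (0.79), miR-1249-3p (0.77) and miR-5121 (0.75), and with group means removed miR-674-5p (0.50), miR-15b-3p (0.47) and miR-669c-5p (0.39). For miR-29c-3p they were miR-374b-5p (0.88), miR-30b-5p (0.87) and miR-324-5p (0.87), and with group means removed miR-18a-5p (0.59), miR-15b-3p (0.57) and miR-592-5p (0.56). Of the features most like miR-29a-3p, miR-129-2-3p rose with OGD by 0.85 in wild type (limma adjusted p = 7.5e-04) and 0.84 in knockout (2.6e-04), and miR-410-3p by 0.41 (0.0158) and 0.28 (0.0268). The change of miR-329-5p was 0.29 in wild type (0.153) and 0.32 in knockout, where it was called (0.039). The changes of miR-410-3p and miR-329-5p are smaller than the shift of 0.56 and 0.51 that centring removes, so they lie under 0 relative to it. Of those chosen with group means removed, miR-335-3p fell by 0.37 (limma adjusted p = 0.0224) and by 0.29 (0.0193), and miR-369-3p stood at 0.20 (0.385) and 0.093 (0.453). The 3 named over the 20 libraries for miR-29b-3p rose by 0.7 to 3.35 in wild type and 0.66 to 3.02 in knockout. Those for miR-29c-3p rose by 0.63 to 1.59 and 0.61 to 1.61. The rest, named with group means removed, stood at -0.039 to 0.46 and 0.03 to 0.51. As r over the 20 libraries includes the OGD difference, such changes follow in part from the rule.

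Within the family, r over the 20 libraries was 0.76 between miR-29a-3p and miR-29c-3p, 0.73 between miR-29b-3p and miR-29c-3p, and 0.69 between miR-29a-3p and miR-29b-3p. With group means removed these were 0.50, 0.23 and 0.40. The strands of the Mir29c hairpin had an r of 0.66, which became -0.20 once group means were removed. Between miR-29c-5p and miR-29a-3p the r of 0.38 became -0.52, and between miR-29c-5p and miR-29b-3p the r of 0.59 became -0.07.

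Other miRNAs of the same background roles were taken from 2 lists. Both lists were chosen with earlier results of these data known, so their counts are descriptions and no support for a role. Of 12 miRNAs that are known to rise as neurons mature, 4 rose and 1 fell with OGD in wild type (median log2 change 0.11, against 0.32 over all features), and 4 rose and 1 fell in knockout (0.037, against 0.24). Over all features, 18.7% were called higher and 4.4% lower in wild type and 18.8% and 5.75% in knockout. All 12 averaged a log2(CPM + 0.5) of 3 or more. The median change of such features in the main fit was 0.22 in wild type and 0.2 in knockout. In a separate fit of such features only, 52.5% were called in either direction in wild type and 61.9% in knockout. In wild type the brain-specific miR-124-3p (0.74, SE 0.11, limma adjusted p = 3.8e-05), miR-138-5p (0.95), miR-132-3p (0.38) and miR-212-3p (1.25) rose, and miR-128-3p fell by 0.57. In knockout miR-124-3p (0.56), miR-137-3p (0.38), miR-138-5p (0.87) and miR-212-3p (1.04) rose, and miR-128-3p fell by 0.53. With centred libraries the counts turned, to 2 higher and 6 lower in wild type and 2 and 7 in knockout, and the medians became -0.45 and -0.47.

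Of 17 miRNAs with known roles around BCL2-family or p53-dependent cell death, 12 rose in wild type (median 0.49, against 0.32 over all features) and 13 in knockout (0.47, against 0.24), and none fell. This list too was chosen with earlier results known. Some of its members share a family name, so the count is not of independent members. Over all features of the same fits, 18.7% and 18.8% were called higher. All 17 averaged 3 or more, and features of that abundance had a median change of 0.22 in wild type and 0.2 in knockout. In the separate fit of such features, 52.5% and 61.9% were called in either direction. Those 2 shares differ in fit and in direction from the counts above. Among them were miR-34a-5p, a p53 target (0.61 in wild type, limma adjusted p = 0.02, and 0.65 in knockout, 0.00278), miR-16-5p, which represses Bcl2 (0.72 and 0.76), and miR-23a-3p (1.00 and 0.97). With centred libraries 1 was higher and 2 lower in wild type, and 2 and 2 in knockout, and the medians turned to -0.075 and -0.041. Neither list had a call in the genotype comparisons or the interaction.

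No messenger RNA was measured here, so the targets are shown only as sequence. The match to the guides' seed, TGGTGCT on the sense strand, was searched in the longest annotated 3′ untranslated region (UTR) of each gene (GENCODE M21, mm10), and 2751 of 21005 genes (13.1%) held it. Genes were chosen from background knowledge of the family's targets, so a match in each was expected. They were the BH3-only genes Bcl2l11 (Bim), Bmf, Hrk and Bbc3 (Puma), the mitochondrial pore gene Bak1 and the DNA methyltransferase gene Dnmt3a. Other BH3-only genes are not shown. A 21-base window around 1 match is given for each of 5 genes, since these are the letters the shared seed would pair with; capitals mark the match.
Bcl2l11, chr2:128158401-128158421, plus strand: atgtccctctctTGGTGCTgc
Bmf, chr2:118531355-118531375, minus strand: aaggaaagacatTGGTGCTat
Hrk, chr5:118185090-118185110, plus strand: ttcacagtttctTGGTGCTaa
Bbc3, chr7:16317538-16317558, plus strand: aggaaaggctgcTGGTGCTgg
Bak1, chr17:27020735-27020755, minus strand: cccaacattgcaTGGTGCTac

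The number of matches was 1 in Bcl2l11, 1 in Bmf, 3 in Hrk, 2 in Bbc3, 1 in Bak1 and 5 in Dnmt3a. Longer regions hold such a match more often. Among genes with a UTR of similar length (within a factor of 1.25), 35.4% held it for Bcl2l11, 32.6% for Bmf, 40.9% for Hrk, 9.69% for Bbc3, 10.7% for Bak1 and 46.4% for Dnmt3a. As the genes were chosen as targets, these shares do not measure an excess of matches. In the windows printed, an A, the base that favours Argonaute binding, follows the match in Bmf, Hrk and Bak1. The other 2 matches in Hrk, the 2 in Bbc3 and the 1 in Bcl2l11 are not followed by an A. A match is a description of the sequence and shows neither binding nor repression.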

How the data were processed

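Small RNA libraries were made from TRIzol RNA with a NEBNext kit and size selection, per the labels' protocols. The submitters' processing notes name mm10; the aligner and counter are not given in the sources used here. The authors deposited 6 tables of a score (named as log CPM, but with maxima of 35.8 to 37.3, where log2 CPM cannot pass 19.9). From the values, each score was whole reads times a library factor, raised to a power of 0.106 to 0.118, with the highest and lowest value of each feature and group limited at quantiles 0.16 and 0.84. Undoing both gave whole reads for 100% of values (tolerance 0.05), equal between tables in 59070 comparisons (0 different). CPM used the authors' library sizes (0.923 to 1.08 times the totals). No 2 replicates matched within sampling noise (lowest chi-square per degree of freedom 16.5). A floor of 3 reads is 0.249 to 2.55 CPM.

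The fit was limma 3.58.1 in R 4.3.3 (lmFit, eBayes with trend) on log2(CPM + 0.5), a scale that understates changes of rare strands. Each comparison used 10 libraries, without a block, and the interaction used all 20. P-values were two-sided, adjusted across every feature of a comparison (Benjamini-Hochberg) and called under 0.05. On simulated data for wild-type OGD (1478 features, 200 changed), 48% of 1.5-fold and 83.5% of 2-fold changes were recovered, with 6.43% and 8.44% of calls false. The changed features had a normoxic mean above 2 CPM, rose or fell with equal odds and shared a single dispersion with the rest. Library medians were not shifted. The rates thus do not cover miR-29a-5p or a shift between libraries like the one seen here. Named features were the 6 strands, the 3 features most like each guide by either r, and any other feature with the guides' seed (none). The marker, maturation and death lists came from background knowledge. Members and lists were chosen with earlier results of these data known. Alternatives covered the deposited values, centring, quantile normalization, pseudocounts of 0.1 and 2 CPM, a minimum mean log2 of 3, thinning, limma voom, a fit over all libraries, a replicate block and leaving out each library. The remaining marker lists, endothelium (269 to 393 CPM), smooth muscle and fibroblast (62 to 130 CPM), oligodendrocyte (5.29 to 14 CPM) and erythroid (0.557 to 5.1 CPM), had no marker at 0 in all libraries. In both genotypes the ranges of the oligodendrocyte and the smooth muscle and fibroblast sums ran higher after OGD, and that of the endothelial sum lower, all with overlap. The oligodendrocyte sum was 5.29 to 11.1 then 9.04 to 13.7 CPM in wild type, and 7.28 to 11.4 then 9.97 to 14 CPM in knockout. None of these was tested.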

Additional observations from a re-analysis of the deposited data

Results flagged for a closer look

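Among 24 combinations of strand and group, 3 held a library far from the other 4 (gap to the nearest library over the group's range above 0.71, which chance gives in about 1 of 20 groups). In knockout OGD, miR-29a-3p was 155 CPM (477 reads) in replicate 1 against 198.6 to 211.3 CPM in the others. In knockout normoxia, miR-29b-3p was 5.16 CPM (62 reads) in replicate 1 against 7.57 to 8.35 CPM. In wild-type normoxia, miR-29a-5p was 0.371 CPM (3 reads) in replicate 3 and had no read in the other libraries. Where the other libraries have no read, any read passes the rule, so the rate of 1 in 20 does not apply to this strand.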

How the results depend on the processing

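The number of strands called after OGD in wild type (3) was 1 with median-centred libraries, with quantile normalization and with the replicate block and centring together, and 0 with thinned reads. It was 0 to 2 when each library was left out, beside 262 to 341 of all 1478 features. In knockout (4), it was 2 with centring, 1 with quantile normalization and 2 with the mean log2 minimum. It was also 2 with thinned reads, with the fit over all 20 libraries and with the block and centring together. When each library was left out it was 2 to 4, beside 293 to 372 of all 1479 features. Other settings, most of which also called a larger share of all features (given at the end), raised it, to 4 in wild type with the deposited values and the fit over all 20 libraries (miR-29b-3p gained) and with voom (miR-29a-5p gained), and to 5 in knockout with voom and a pseudocount of 2 (miR-29b-3p gained). In knockout the deposited values gave 4 (miR-29b-3p gained, miR-29a-5p lost), and a pseudocount of 0.1 gave 3. Under the mean log2 minimum only miR-29a-3p and miR-29b-3p were tested, and both were called in both genotypes (2 of 2, with miR-29b-3p gained at limma adjusted p = 0.0389 in wild type and 0.0166 in knockout). Elsewhere the cause was not tested. No strand was called in the genotype comparisons or the interaction under any alternative run.

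Directions turned as follows. In wild type, centring gave -0.037 for miR-29a-3p, -0.018 for miR-29b-3p and -0.097 for miR-29a-5p, with the same values under the block and centring, and quantile normalization gave -0.12 for miR-29b-3p. In knockout, centring with or without the block gave -0.17 for miR-29a-3p and -0.031 for miR-29b-3p, and quantile normalization -0.086 for miR-29b-3p. For knockout against wild type in normoxia, thinning gave -0.23 for miR-29c-3p, and voom -0.048 for miR-29a-5p and -0.022 for miR-29b-2-5p. After OGD, miR-29a-3p was 0.038 with centring (with or without the block) and 0.023 with quantile normalization, and miR-29b-2-5p was 0.014 with thinning. In the interaction, miR-29b-3p was 0.0056 with centring (with or without the block) and 0.0029 with quantile normalization. There miR-29c-3p was 0.057 with centring (with or without the block), 0.047 with quantile normalization, 0.0028 with a pseudocount of 2, 0.43 with thinning and 0.084 with voom. None of these passed the threshold. Leaving out single libraries moved miR-29b-2-5p in normoxia between -0.081 and 0.16. After OGD it moved miR-29a-3p between -0.11 and 0.034, miR-29b-2-5p between -0.41 and 0.15 and miR-29c-5p between -0.053 and 0.17. In the interaction it moved miR-29b-3p between -0.18 and 0.056, miR-29c-3p between -0.13 and 0.13 and miR-29b-2-5p between -0.46 and 0.091.

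Over all features limma called 23.1% and 24.5% after OGD in wild type and knockout. These became 32.3% and 32.2% with the deposited values, 28.2% and 21.9% with the fit over all 20 libraries, 22.3% and 24.3% with a pseudocount of 2, 46.9% and 53% with voom, 17.1% and 15.4% after thinning, and 52.5% and 61.9% of the 425 and 420 features that passed the mean log2 minimum. The titles number libraries alike in both treatments of a genotype, and the labels used here do not say whether equal numbers share a culture. Same-numbered libraries did not all deviate together (r from -0.17 to 0.66 in wild type and from -0.21 to 0.49 in knockout). The best partner had its own number in 4 of 5 and 3 of 5, against 2 of 5 and 1 of 5 between genotypes in normoxia and after OGD. These values do not settle whether the numbers are pairs, and the main fit used no block. With the replicate block, 3 strands in wild type and 4 in knockout were called, beside 26.3% and 27.2% of all features (miR-29a-3p limma adjusted p = 0.00287 and 0.00368). For the interaction the deposited values were not run, because no table holds all 4 groups. Depth limits miR-29a-5p most, with at most 4 reads in a library. Its change ranged from -0.097 to 2.67 over the alternatives in wild type and from 0.4 to 3.92 in knockout. Leaving the libraries that stood apart out of sums and ratios was chosen after seeing the data.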
